A study of Mus musculus with 9 samples.

Results

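Collagen and laminin genes were followed in the striatum of WT mice and of mice that carried 1 (HET) or 2 (KO) *Shank3B* targeted alleles, in which internal exons of the postsynaptic scaffold gene *Shank3* are targeted. Members were all genes of the deposited table whose symbol is Col, a number, a and a number, or Lama, Lamb or Lamc and a digit. The rule found 54 genes (43 collagen chains and 11 laminin chains) of 15464 genes in all, and all 54 reached a normalized count of 10 in at least 3 libraries, as did 14239 genes of the whole table. The values are the authors' normalized counts, that is, estimated reads per gene divided by a size factor for each library. There were 3 male mice of each genotype, 10 to 12 weeks old, WT littermates and mutants alike in a C57BL/6J background, and the striatum of 1 mouse made 1 library. The libraries are called WT1 to WT3, HET1 to HET3 and KO1 to KO3 after their labels. The targeted alleles were inherited, so they were carried by all cells of these mice and not by 1 cell type.

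Collagens are helices of 3 alpha chains, which come from 1 gene or from different genes, and the chains of 1 trimer have to be made in the same cell. Fibrillar collagens (types I, II, III, V, XI, XXIV and XXVII) form the fibres of connective tissue, which in the brain is largely limited to the meninges and the sheaths of larger vessels. Basement membranes are the thin sheets under endothelium, around mural cells and at the brain surface. They are built from a laminin network, each laminin being 1 alpha, 1 beta and 1 gamma chain, and from a type IV collagen network, linked by nidogens and perlecan. Other collagens decorate fibres (the FACIT types), form beaded filaments (type VI) or span the cell membrane. In whole striatum, fewer cells of a type and less RNA per cell cannot be told apart.

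The normalized counts summed to between 30825594 and 33786242 per library. No batch is named in the labels, but HET3 and KO3 stood apart from the other libraries: on the first principal component of all genes tested, with 33.6% of the variance, they lay at 33.8 and 34.2, and the other 7 libraries between -17.0 and 1.4. Cell type markers differed between libraries too: the summed level of 12 medium spiny neuron markers ran from 97817 in KO3 and 100467 in WT3 to 198851 in WT2, and that of 8 oligodendrocyte markers from 137498 in KO3 to 261360 in WT3. All 12 neuron markers were lower in KO than in WT (median log2 fold change -0.26), while 8 were higher in HET. All 8 oligodendrocyte markers were higher in HET than in WT (median 0.33), and 5 were higher in KO. Of these markers 0 passed an unadjusted p of 0.05 against WT (limma), and their part in the members' levels was not tested. The normalized count of *Shank3* was 6043 to 8812 in WT, 7098 to 8050 in HET and 10237 to 10798 in KO. It is summed over the whole gene, exons outside the targeted part included, so it does not check the targeting.

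No member changed with genotype past an adjusted p of 0.05. By limma, with Benjamini-Hochberg adjustment over 14239 genes, 0 genes (0%) passed in HET against WT, in KO against WT and in KO against HET, and the smallest adjusted p of a member was 0.999. The paper tested these mice with DESeq2 and recalibrated the p values to an estimated null distribution before adjustment, a step not taken here. It reported differentially expressed genes in HET and in KO, *Shank3* among those of KO. The limma fit called none of them, *Shank3* included, so a lack of calls here does not show that no gene changed. By gene set enrichment, the paper also reported an extracellular matrix term whose scores had opposite signs in KO and in *Shank3* overexpressing mice. The HET score had the direction of KO. Gene sets were not tested here. At an unadjusted p under 0.05, 1 of the 54 members (1.85%) passed in HET against WT beside 158 genes (1.11%) of all tested, 0 in KO against WT beside 117 (0.822%), and 0 in KO against HET beside 186 (1.31%). Each share of all genes lay well below the share of 0.05 expected where no gene changes. The p values of this fit were thus conservative, for a reason that was not tested. Fold changes are on the scale of log2(normalized count + 1), which understates the change of low genes. The median log2 fold change of the members was -0.06 in HET against WT (23 positive, 31 negative) and 0.04 in KO against WT (30 positive, 24 negative), beside medians of -0.003 and 0.005 over all genes. The members' median in HET was 0.04 without HET3, and that in KO was -0.02 without KO2, so that neither kept its sign. HET and KO were compared with the same 3 WT mice, so the 2 comparisons are not independent. An exact permutation test of 3 mice against 3 cannot go below p = 0.1, so single values are read from limma.

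**Figure D1:**
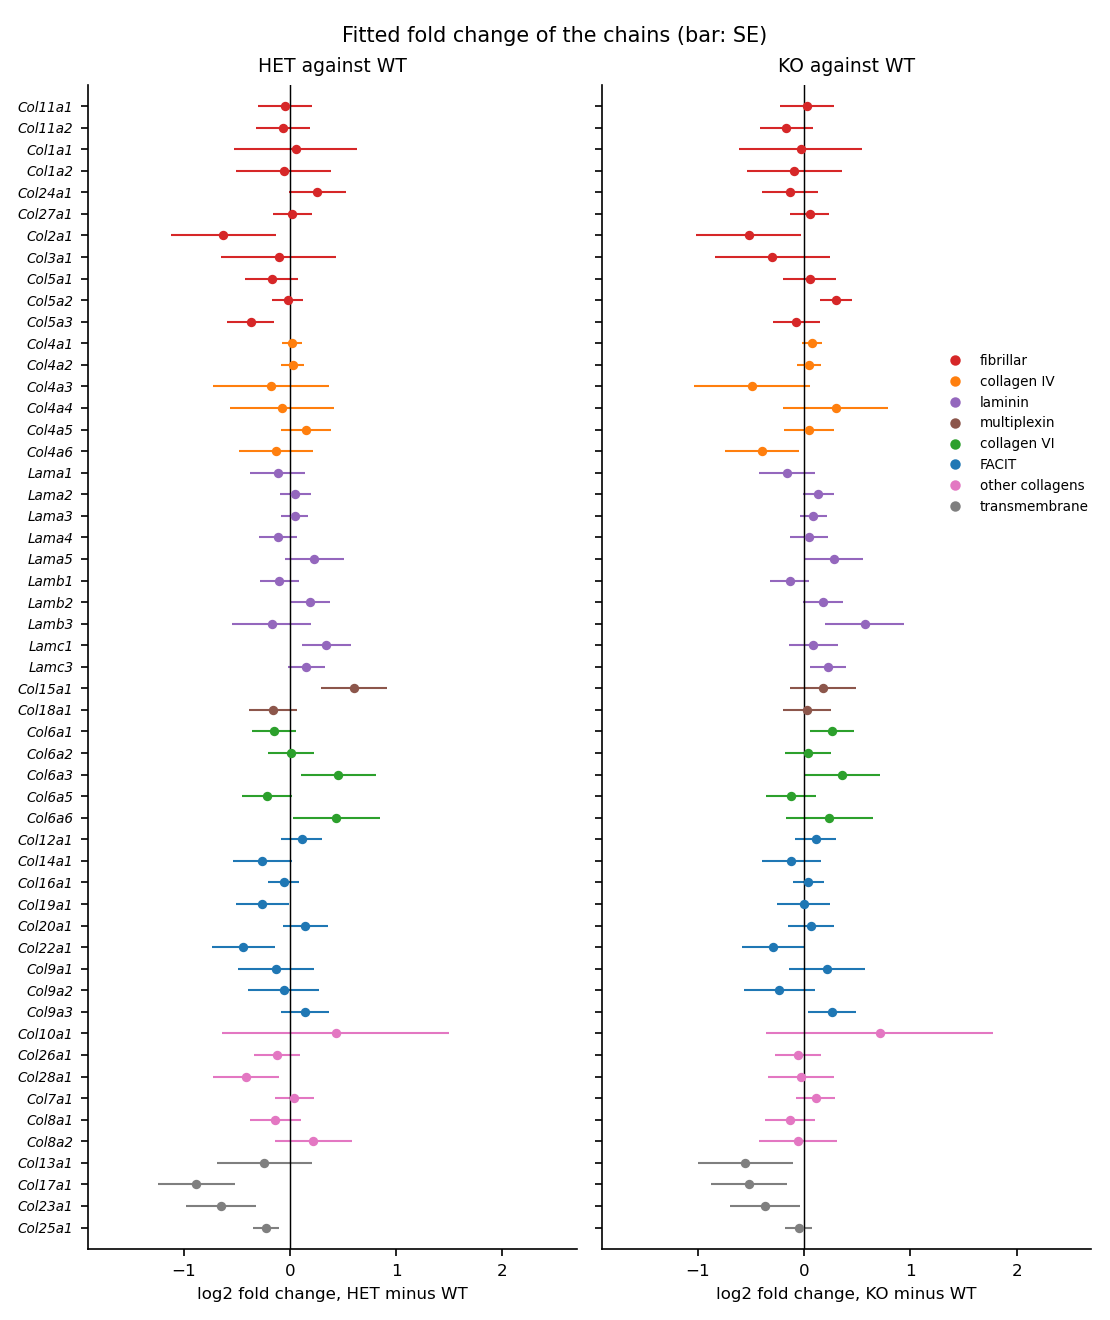
Log2 fold change of 53 of the 54 chains (x axis, log2 of normalized count + 1) in HET against WT (left) and KO against WT (right), grouped and coloured by class. Points are fitted values and bars are SE from limma, with 3 mice per genotype. No value passed an adjusted p of 0.05, and the 4 transmembrane collagens lie left of 0 in both panels.

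The chains differed from each other in how far mice of the same genotype spread. The within-genotype SD of log2 values had a median of 0.349 over the members, beside 0.192 over all genes tested. The members were lower in level (median of the mean normalized count 218, beside 767), and the part of level in this spread was not tested. Members ranged from *Col4a1*, with an SD of 0.088 and a highest library 1.20 times the lowest, to *Col10a1*, the chain of hypertrophic cartilage, with an SD of 1.60 and values between 0 and 23.3. *Col10a1* is listed at 0 in WT3, the only 0 among the members.

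Levels between genes were compared per kb of merged exon. In WT *Col6a1*, a chain of the beaded filaments of collagen VI, had the highest level per kb (1220 ± 383, SD, n = 3). *Col4a2* (388 ± 39.6) and *Col4a1* (228 ± 6.99), the chains of the common collagen IV trimer of vessels, came next, with no overlap of their WT mice with each other. *Lamb2* (183 ± 3.18), *Col11a2* (178 ± 32.6) and *Lamc1* (164 ± 39.3) followed and did not differ beyond their spread. *Col25a1* (133 ± 5.71), a transmembrane collagen of neurons, and *Col16a1* (116 ± 9.54), a FACIT collagen, completed the first 8. The order depended on the length used: per kb of the longest transcript, *Col25a1* (258) ranked 3, just above *Col4a1* (257), and *Col16a1* ranked 10. At the other end stood *Col4a3* (1.75 ± 0.923) and *Col4a4* (2.00 ± 1.20), chains of the collagen IV of the kidney filter, and *Col6a6* (2.07 ± 0.777), which overlapped each other.

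*Col1a2* (29.9 ± 6.77) and *Col1a1* (29.1 ± 9.92), the chains of collagen I and the main collagen of most connective tissue, ranked 24 and 26 of 54, and *Col3a1* (9.81 ± 3.53) ranked 40. Per kb of the longest transcript, *Col1a2* (69.5) ranked 17, *Col1a1* (32.2) 29 and *Col3a1* (17.3) 36. By class, collagen IV and laminin chains together made up 33.3% ± 3.0 of the members' summed level per kb in WT, 36.4% ± 5.0 in HET and 33.2% ± 3.9 in KO (SD, n = 3). Fibrillar chains made up 13.9% ± 2.0, 13.9% ± 2.5 and 12.4% ± 0.9. Collagen VI made up 33.1% ± 5.9, 30.7% ± 4.9 and 36.4% ± 3.9, almost all of it *Col6a1*. For each of these shares the HET and KO means differed from the WT mean by less than the largest of the 3 SDs.

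**Figure D2:**
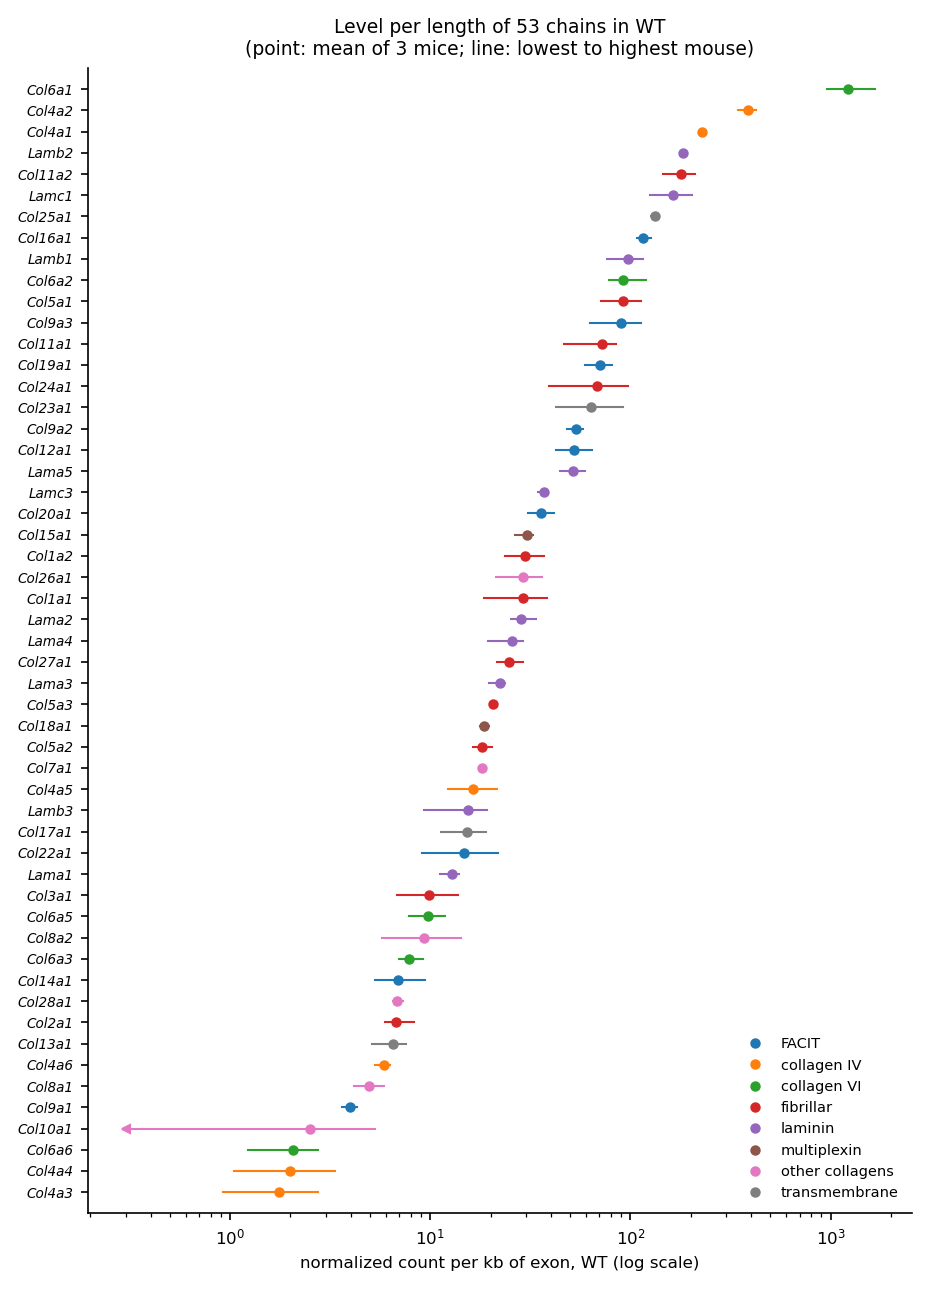
Normalized count per kb of merged exon in WT (x axis, log scale) for 53 of the 54 chains, ordered by their mean and coloured by class. Points are means of 3 mice and lines run from the lowest to the highest mouse, with an arrow for *Col10a1*, whose lowest value is 0. *Col6a1* stands at 1220, above *Col4a2* at 388 and *Col4a1* at 228.

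Among the fibrillar collagens, *Col1a1*, *Col1a2* and *Col3a1* varied between mice more than between genotypes. The normalized count of *Col1a1* (chr11:94936224-94953042, plus strand) was 122, 201 and 251 in WT1 to WT3, 88.3, 399 and 194 in HET1 to HET3 and 82.5, 224 and 310.2 in KO1 to KO3. *Col1a2*, whose chain pairs with that of *Col1a1* in collagen I, was at 294, 360.5 and 461 in WT, 192, 681 and 330.1 in HET and 194, 422 and 491 in KO. *Col3a1*, the chain of collagen III, was at 67.3, 135 and 87.0, 42.9, 169 and 86.7 and 35.4, 103 and 115 in the same order. HET2 was the highest library for all 3 genes, and HET1 and KO1 were the 2 lowest for each, so the genotypes overlapped throughout. The highest library was 4.84 times the lowest for *Col1a1*, 3.55 times for *Col1a2* and 4.77 times for *Col3a1*.

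The fitted differences of these genes were smaller than their errors. The log2 fold change of *Col1a1* was 0.05 (SE 0.58) in HET against WT and -0.03 (SE 0.58) in KO against WT, that of *Col1a2* was -0.06 and -0.09 (SE 0.45 for both), and that of *Col3a1* was -0.11 and -0.30 (SE 0.54 for both). The adjusted p (limma, Benjamini-Hochberg) was 0.999 for each. Single libraries set these signs: without HET2 the HET value of *Col1a1* was -0.48 and without HET1 it was 0.60, and the KO value was 0.52 without KO1 and -0.42 without KO3. For *Col1a2* the HET value was -0.54 without HET2 and 0.37 without HET1, and the KO value 0.32 without KO1. For *Col3a1* the HET value was -0.59 without HET2 and 0.39 without HET1, and the KO value 0.23 without KO1.

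*Col1a1* and *Col1a2* moved in step from mouse to mouse. Over the 9 libraries their log2 values correlated with Pearson's r of 0.984 (exact permutation p = 5.51e-06, 4.41e-05 adjusted over 8 pairs of chains) and Spearman's rho of 0.983 (exact p = 4.96e-05, 0.000397 adjusted). Without HET1 and KO1, the 2 libraries farthest from the median, r was 0.957 (exact p = 0.00159), and without HET3 and KO3 it was 0.991. *Col1a1* and *Col3a1*, chains of different collagens of the same tissue, correlated with r = 0.930 (exact permutation p = 0.000411, 0.00164 adjusted) and rho = 0.883 (exact p = 0.00308, 0.0123 adjusted). Without HET1 and KO1 that r was 0.798 (exact p = 0.0333), and its adjusted p of 0.0888 no longer passed. Deviations from the genotype means correlated almost as the values did, at 0.987 and 0.943. The permutations of these and the other pairs of chains treat the 9 libraries as exchangeable and take no account of the HET and KO libraries of the same number, which deviated together.

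The promoters of *Col1a2* and *Col3a1*, which lie on different chromosomes, are shown because the 2 genes had the same highest library and the same 2 lowest. Each window runs from 250 bases before to 50 after a RefSeq start (GRCm38.p6), and capitals mark the GC box GGGCGG, the CCAAT box and TATAAA on either strand. The *Col1a2* window is at chr6:4505368-4505667 (plus strand) and holds 2 GC boxes and 2 CCAAT boxes, and the *Col3a1* window is at chr1:45311288-45311587 (plus strand) and holds 1 TATAAA.
Col1a2: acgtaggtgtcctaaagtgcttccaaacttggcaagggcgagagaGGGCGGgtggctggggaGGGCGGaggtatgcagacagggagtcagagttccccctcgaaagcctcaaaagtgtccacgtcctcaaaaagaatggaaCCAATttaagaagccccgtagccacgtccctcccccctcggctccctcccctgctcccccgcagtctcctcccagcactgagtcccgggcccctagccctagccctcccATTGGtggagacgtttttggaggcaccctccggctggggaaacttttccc
Col3a1: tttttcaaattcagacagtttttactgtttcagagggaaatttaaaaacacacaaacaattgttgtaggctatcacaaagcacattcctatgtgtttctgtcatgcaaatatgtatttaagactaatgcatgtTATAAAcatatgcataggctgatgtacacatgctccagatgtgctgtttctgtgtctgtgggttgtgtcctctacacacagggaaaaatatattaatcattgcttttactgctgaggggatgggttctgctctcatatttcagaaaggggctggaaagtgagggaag
No *Col1a1* window was in the table used. Windows were matched for 39 of the 54 members, 43 windows in all. The GC box stood in 58.1% of the members' windows and 35.7% of all 32851 windows, CCAAT in 30.2% and 37.4%, and TATAAA in 11.6% and 13.6%. The members' windows had a median GC content of 59.7%, beside 52.7% for all windows.

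Markers of fibroblasts and the meninges moved with these 3 collagens. The summed level of all 12 markers tested, among them *Slc6a13*, *Slc22a6*, *Aldh1a2* and *Fmod*, was 2178, 3032 and 3581 in WT1 to WT3, 1786, 5562 and 2717 in HET1 to HET3, and 1391, 3141 and 3917 in KO1 to KO3. HET2 was the highest library for 10 of the 12 markers and KO1 the lowest for 11, and no marker was at 0 in any library. *Igf2*, the marker with the highest normalized count without regard to length, was at 604, 1104 and 1090 in WT, 508, 2194 and 1006 in HET and 422, 1102 and 1292 in KO. Their part in the levels of *Col1a1*, *Col1a2* and *Col3a1* was not tested.

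**Figure D3:**
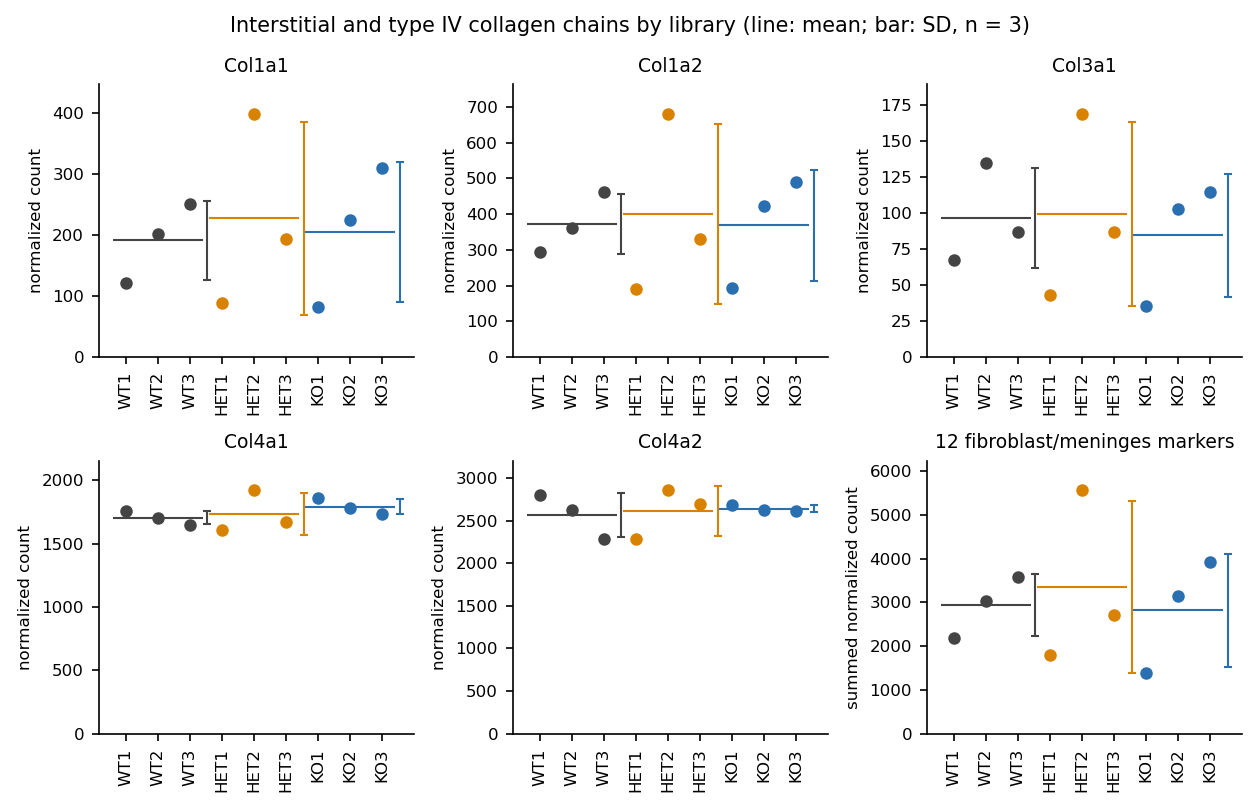
Normalized counts (y axis, starting at 0) of 3 interstitial and 2 type IV collagen chains and the summed normalized count of 12 fibroblast and meninges markers, by library. Points are mice, lines are genotype means and bars are SD (n = 3). HET2 is the highest library for *Col1a1*, *Col1a2*, *Col3a1* and the marker sum, while *Col4a1* stays between 1605 and 1921.

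The other 8 fibrillar chains followed other orders, and HET2 was the highest library for 2 of them. *Col5a2*, a chain of collagen V, which is built into collagen I fibres, was at 172, 157 and 194 in WT, 173, 186 and 157 in HET and 199, 242 and 205 in KO. The KO mice all lay above the WT and above the HET mice, with a log2 fold change of 0.30 (SE 0.15, unadjusted p = 0.0682, adjusted p = 0.999, limma) against WT and 0.32 (SE 0.15, unadjusted p = 0.0532) against HET. It was the only member whose KO mice did not overlap WT, 1 of 54 (1.85%) beside 646 of 14239 genes (4.54%), so the share was not above the background. *Col5a1*, its partner chain, was at 959.9, 603 and 769.7 in WT, 935, 673 and 494 in HET and 999, 648 and 768 in KO, and the genotypes overlapped. *Col24a1* was lower in KO (436, 418 and 481) than in each HET mouse (543, 544 and 667), with a log2 fold change of -0.39 (SE 0.27, unadjusted p = 0.175), but WT spanned both (518, 746 and 299). With *Col5a2* it made 2 of 54 members (3.7%) without overlap in KO against HET, beside 633 genes (4.45%).

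*Col11a1* and *Col11a2*, chains of collagen XI, had log2 fold changes of -0.05 and -0.07 in HET and 0.03 and -0.17 in KO. *Col2a1*, the cartilage collagen, was lowest in HET3 and KO3 (42.9, 82.1 and 17.3 in HET, 66.7, 39.0 and 29.8 in KO, 54.9, 55.8 and 76.9 in WT). Over all 11 fibrillar chains, 3 log2 fold changes were positive and 8 negative in HET (median -0.06), and 4 positive and 7 negative in KO (median -0.07). The HET median was -0.27 without HET2 and 0.04 without HET3. Without *Col1a1*, *Col1a2* and *Col3a1*, the median was -0.06 in HET (2 positive, 6 negative) and -0.02 in KO (4 positive, 4 negative). HET3 was the lowest library for 5 of the 11 fibrillar chains and HET2 the highest for 5.

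*Col4a1* and *Col4a2*, the network collagen chains of vessel basement membranes, were among the most even members between mice. *Col4a1* was at 1753, 1705 and 1649 in WT1 to WT3, 1605, 1921 and 1667 in HET1 to HET3 and 1856, 1783 and 1735 in KO1 to KO3. *Col4a2* was at 2798, 2618 and 2281 in WT, 2281, 2856 and 2696 in HET and 2685, 2623 and 2614 in KO. All genotypes overlapped, and the highest library was 1.25 times the lowest for *Col4a2*. The log2 fold change of *Col4a1* was 0.02 in HET and 0.07 in KO (SE 0.09 for both), and that of *Col4a2* 0.02 and 0.05 (SE 0.11 for both), with adjusted p of 0.999 (limma). HET2, where collagen I was at its highest, was the highest library for both as well.

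*Col4a1* and *Col4a2* lie head to head on chromosome 8. Their promoter windows are printed because 1 stretch of DNA lies in both. The RefSeq starts are 21 bp apart, the window of *Col4a1* is chr8:11312777-11313076 (minus strand) and that of *Col4a2* is chr8:11312555-11312854 (plus strand). Capitals mark the 78 bases that both windows hold, read from opposite strands, from position 11312777 to 11312854.
Col4a1: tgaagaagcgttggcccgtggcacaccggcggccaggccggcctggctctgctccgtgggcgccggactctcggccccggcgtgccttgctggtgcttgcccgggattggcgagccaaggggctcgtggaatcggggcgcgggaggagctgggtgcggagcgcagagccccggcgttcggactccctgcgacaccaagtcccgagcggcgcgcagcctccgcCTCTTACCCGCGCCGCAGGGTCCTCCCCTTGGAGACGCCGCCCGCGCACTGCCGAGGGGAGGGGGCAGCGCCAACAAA
Col4a2: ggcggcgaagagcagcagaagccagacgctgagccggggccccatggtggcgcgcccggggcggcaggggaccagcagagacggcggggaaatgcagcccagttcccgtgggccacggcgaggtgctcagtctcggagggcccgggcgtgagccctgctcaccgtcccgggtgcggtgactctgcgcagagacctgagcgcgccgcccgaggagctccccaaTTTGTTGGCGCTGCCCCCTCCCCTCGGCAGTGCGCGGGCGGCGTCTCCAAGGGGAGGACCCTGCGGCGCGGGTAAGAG
The values of this pair correlated over 9 libraries with r = 0.767 (exact permutation p = 0.017, 0.034 adjusted) and rho = 0.717 (exact p = 0.0369, 0.0738 adjusted). The relation did not pass without HET1 and HET2, the 2 libraries farthest from the *Col4a1* median (r = 0.529, exact p = 0.224). Leaving out extreme libraries narrows the range, which itself lowers r, so this cannot show that the relation rested on them. Without HET3 and KO3, r was 0.865 (exact p = 0.0143). The other 2 head-to-head collagen IV pairs did not pass. *Col4a3* and *Col4a4*, whose genes lie 71 bp apart on chromosome 1, had r = 0.478 (exact p = 0.19, 0.247 adjusted), and *Col4a5* and *Col4a6*, 1308 bp apart on chromosome X, had r = 0.456 (exact p = 0.216, 0.247 adjusted). These 4 chains were low, at 5.8 to 148.8 normalized counts, and *Col4a3* fell below 10 in 3 libraries.

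The laminin genes *Lamb2*, *Lamc1* and *Lama5* gave the second pattern, in which HET3 and KO3 were high. It was not a trait of the whole class. HET3 was the highest library for 2 of the 11 laminin chains (18.2%, beside 20.4% of all genes tested) and KO3 for 3 (27.3%, beside 16.3%). *Lamb2*, the beta chain of mature vessel and synaptic laminins, was even in WT at 1112, 1129 and 1091, was at 991, 1230 and 1664 in HET1 to HET3 and at 1146, 1085 and 1600 in KO1 to KO3. *Lamc1*, the gamma chain shared by most laminins, was at 1336, 1689 and 1040 in WT, 1381, 1601 and 2171 in HET and 1212, 1249 and 1866 in KO. *Lama5*, an alpha chain of endothelial basement membrane, was at 678, 584 and 507 in WT, 494, 772 and 849.8 in HET and 539.8, 607 and 1092 in KO. For each of these genes HET3 and KO3 were the 2 highest of the 9 libraries, and the other HET and KO mice lay in or near the WT range.

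Leaving out HET3 or KO3 turned the sign of some of these differences and lowered the rest. It had to lower them, because the genes were grouped by their high values in HET3 and KO3. Leaving out another library could raise them: without HET1 the HET value was 0.365 for *Lamb2* and 0.47 for *Lama5*, and without WT2 it was 0.52 for *Lamc1*. *Lamb2* had a log2 fold change of 0.19 in HET and 0.18 in KO (SE 0.19 for both), and these were -0.0085 without HET3 and 0.006 without KO3. *Lamc1* had 0.34 in HET and 0.09 in KO (SE 0.23 for both), and these were 0.16 without HET3 and -0.11 without KO3. *Lama5* had 0.23 in HET and 0.28 in KO (SE 0.27 for both), and these were 0.08 without HET3 and -0.03 without KO3. The adjusted p was 0.999 for each (limma).

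Vessel markers were also high in HET3. The summed level of 10 endothelial markers was 7473 to 8077 in WT, 7581, 8842 and 9517 in HET1 to HET3 and 7659, 7759 and 8260 in KO1 to KO3. That of 12 mural cell markers was 8327 to 9697 in WT, 8040, 10486 and 10470 in HET and 8362, 9504 and 9402 in KO. KO3 lay just above the WT range for endothelial markers and within it for mural markers, and their part in the laminin levels was not tested.

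*Lamb1*, the beta chain of laminins made early in development, did not share the pattern. It was at 1147, 994 and 758 in WT, 1076, 722 and 902 in HET and 844, 999 and 775 in KO, with log2 fold changes of -0.10 and -0.13 (SE 0.18 for both). No correlation with *Lamc1* was detected (r = -0.062, exact permutation p = 0.871, 0.871 adjusted), whereas *Lamb2* and *Lamc1* had r = 0.802 (exact p = 0.00668, 0.0178 adjusted) and rho = 0.65 (exact p = 0.0666, 0.107 adjusted). The latter did not pass without HET3 and KO3, the 2 libraries farthest from the *Lamb2* median (r = 0.334, exact p = 0.484). Here too, leaving out extreme libraries itself lowers r. *Lama2*, the alpha chain of the glial and muscle basement membrane, was at 420.0, 413 and 553 in WT, 501, 471 and 452 in HET and 538, 549 and 429.5 in KO, and *Lama4*, the other endothelial alpha chain, at 338, 234 and 352, 304, 299.7 and 243 and 306, 354 and 283. Their log2 fold changes were 0.05 and 0.13 for *Lama2* (SE 0.15 for both) and -0.11 and 0.05 for *Lama4* (SE 0.18 for both), in HET and KO.

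*Lamb3*, a beta chain of epithelial anchoring laminin, was at 126, 61.7 and 120.0 in WT, 136, 53.5 and 89.2 in HET and 156, 110.5 and 179.9 in KO. It was lowest in HET2 and highest in KO3, and its log2 fold change was -0.17 in HET, 0.57 in KO and 0.74 in KO against HET (SE 0.37 for each, unadjusted p = 0.0721 for the last). The KO value was 0.24 without WT2, and the HET value was 0.17 without HET2. HET and KO libraries of the same number deviated together, but a pairing by number was not established. With the replicate number as a block, 3 members passed an unadjusted p of 0.05 in KO against HET, beside 318 genes (2.23%) of all tested. *Lamb3* and *Col6a1* were among them, both higher in KO, with unadjusted p of 0.00479 and 0.0234 and an adjusted p of 1.0 each (limma).

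Over the 11 laminin chains, 7 log2 fold changes were positive in HET (median 0.05) and 9 in KO (median 0.13), the HET median was -0.02 without WT2, and 0 passed an unadjusted p of 0.05 or had HET or KO mice without overlap with WT. With the 6 collagen IV chains, the 17 basement membrane chains had a median of 0.02 in HET (10 positive) and 0.09 in KO (13 positive), beside -0.06 and -0.07 for the 11 fibrillar chains. The difference between the classes was not tested. The basement membrane median in HET was -0.0338 without WT2 and -0.028 with the collagen IV chains alone, so it did not keep its sign, and that in KO was 0.05 with those chains alone and 0.15 without WT3.

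**Figure D4:**
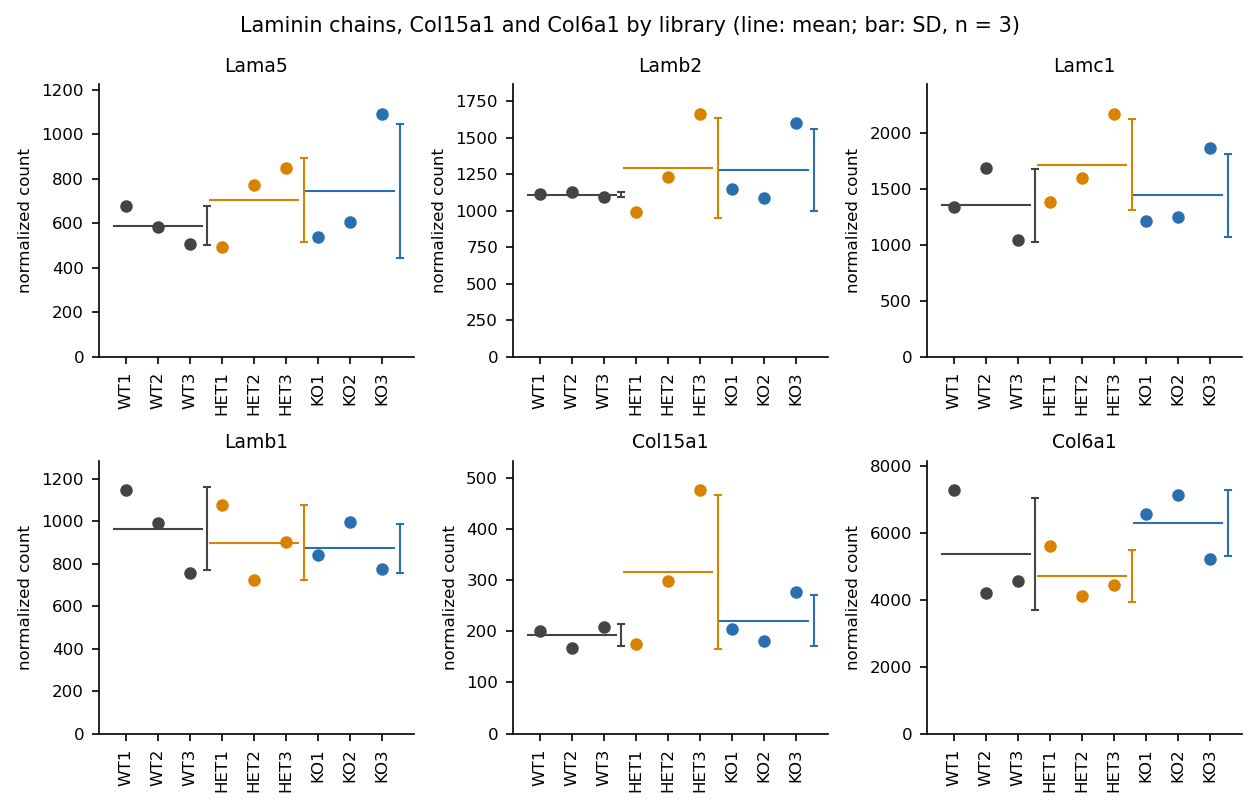
Normalized counts (y axis, starting at 0) of 4 laminin chains, *Col15a1* and *Col6a1* by library. Points are mice, lines are genotype means and bars are SD (n = 3). HET3 and KO3 are the 2 highest libraries for *Lama5*, *Lamb2* and *Lamc1*, but not for *Lamb1* or *Col6a1*.

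*Col15a1* and *Col18a1* encode the multiplexins of vessel basement membranes, and the latter releases endostatin from its end. *Col15a1* was at 201, 168 and 208 in WT, 175, 298 and 476 in HET and 205, 181 and 276 in KO. HET3 was the highest library, HET2 the next and KO3 below both at 276, and the log2 fold change was 0.61 in HET (SE 0.31, unadjusted p = 0.0799) and 0.18 in KO. The HET value was 0.25 without HET3 and 0.97 without HET1, and the KO value was 0.0088 without KO3. *Col18a1* was at 128, 124 and 137 in WT, 100.2, 152 and 102 in HET and 99.4, 162 and 144 in KO, with log2 fold changes of -0.16 and 0.03 (SE 0.22 for both).

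*Col6a1* was at 7289, 4221 and 4584 in WT, 5604, 4114 and 4462 in HET and 6572, 7153 and 5222 in KO. WT1 was the highest library and the other 2 WT mice were among the 4 lowest, so WT overlapped both genotypes, and the log2 fold change was -0.15 in HET, 0.27 in KO and 0.42 in KO against HET (SE 0.21 for each, unadjusted p = 0.072 for the last). *Col6a2*, whose chain joins the same trimer and whose gene lies 85.2 kb away on chromosome 10, was at 993, 649.7 and 662 in WT, 1019, 667 and 637 in HET and 914, 714 and 705 in KO. The pair correlated with r = 0.703 (exact permutation p = 0.0389, 0.0622 adjusted) and rho = 0.767 (exact p = 0.0214, 0.0571 adjusted), which did not pass. *Col6a3*, the third chain of the common trimer, followed another order, with its highest values in KO3 (207) and HET2 (187).

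The 9 FACIT collagens, which bind to the surface of fibres, had a median log2 fold change of -0.06 in HET (3 positive, 6 negative) and 0.04 in KO (5 positive, 4 negative). HET3 was the lowest library for 5 of them. *Col19a1*, a FACIT collagen of interneurons, was at 556, 406 and 486 in WT, 521, 461 and 264 in HET and 591, 470.0 and 394 in KO, and *Col9a2* at 179.9, 164 and 149.8, 219.6, 199 and 89.1 and 134, 194 and 103. The 6 remaining secreted collagens had medians of -0.04 in both genotypes.

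The 4 transmembrane collagens were the only class whose members all had negative log2 fold changes in both genotypes, with medians of -0.45 in HET and -0.44 in KO, but the HET value of *Col13a1* was 0.09 without HET3 and the KO value of *Col25a1* was 0.0016 without KO3. *Col17a1*, a hemidesmosome component, was at 68.1, 114 and 92.3 in WT, 84.2, 28.4 and 46.3 in HET and 72.0, 65.1 and 51.2 in KO. Its log2 fold change in HET was -0.88 (SE 0.36, unadjusted p = 0.0346, adjusted p = 0.999, limma), the only unadjusted p under 0.05 of a member, although HET1 lay within the WT range. *Col25a1*, whose shed ectodomain is found in amyloid plaques, was at 1779, 1757 and 1642 in WT, 1631, 1638 and 1201 in HET and 1715, 1739 and 1548 in KO. Its HET mice all lay below WT, with a log2 fold change of -0.23 (SE 0.13, unadjusted p = 0.101), and it was the only such member, 1 of 54 (1.85%) beside 633 genes (4.45%). HET1 and HET2, at 1631 and 1638, lay just under the lowest WT mouse at 1642.

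*Col23a1* was at 316, 243 and 529.7 in WT, 272, 259.5 and 148 in HET and 241, 369 and 213 in KO, and *Col13a1* at 35.0, 23.5 and 31.3, 22.8, 43.1 and 15.3 and 22.7, 30.9 and 10.9. HET3 and KO3 were low for the whole class: the median deviation of the 4 genes from the WT mean was -0.92 in HET3 and -0.74 in KO3 on the log2 scale, and between -0.34 and 0.06 in the other 7 libraries. The class median was -0.22 in HET without HET3 and -0.18 in KO without KO3.

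**Figure D5:**
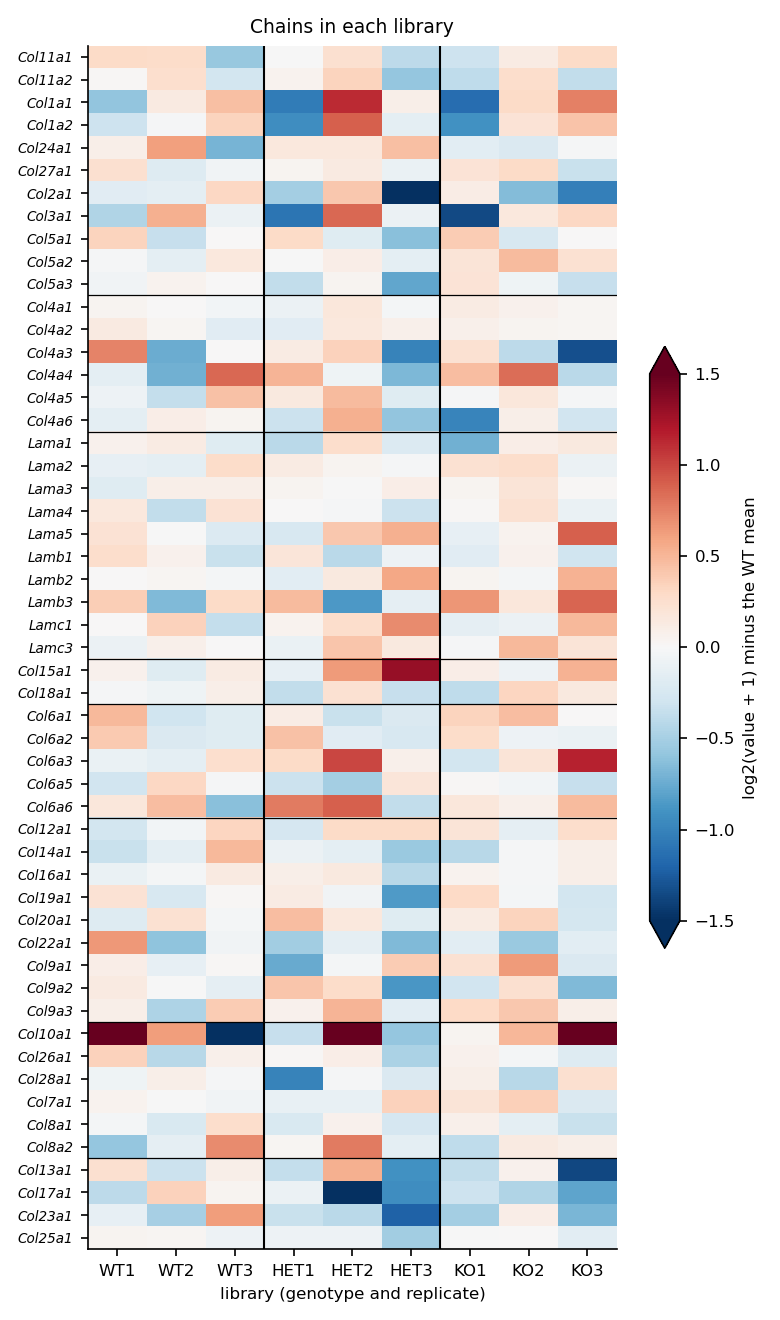
Deviation of log2(normalized count + 1) of 53 chains from their WT means (colour, red higher and blue lower, clipped at 1.5 either way), by library (x axis) and grouped by class (y axis, from the fibrillar chains at the top to the transmembrane collagens at the bottom). *Col1a1*, *Col1a2* and *Col3a1* are red in HET2 and blue in HET1 and KO1, and *Lama5*, *Lamb2* and *Lamc1* are red in HET3 and KO3.

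Across all members HET2 was the highest library for 16 of 54 chains (29.6%, beside 12.1% of all genes tested) and HET3 the lowest for 14 (25.9%, beside 19.3%). KO3 was the highest for 5 and the lowest for 6, although 16.3% and 16.2% of all genes had their highest and lowest value there.

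None of the enzymes, partners and receptors of these chains passed an adjusted p of 0.05 either (limma). Of 30 genes of collagen folding, crosslinking and processing tested, 1 (3.33%, beside 1.11% of all genes) passed an unadjusted p of 0.05 in HET against WT, 0 in KO against WT and 0 in KO against HET. That gene was *Loxl2*, a lysyl oxidase that crosslinks collagen, at 70.7, 54.0 and 58.4 in WT, 86.4, 78.5 and 102 in HET and 51.3, 52.4 and 85.0 in KO, with a log2 fold change of 0.54 in HET (unadjusted p = 0.0465). Every HET mouse lay above every WT mouse for it, and its adjusted p was 0.999 (limma). By overlap, 2 of the 30 genes (6.67%, beside 4.45% of all genes) had HET mice apart from WT. In KO against WT it was 0 (beside 4.54%), and in KO against HET 1 (3.33%, beside 4.45%). Of 20 matrix partners, such as nidogens, perlecan and agrin, 0 passed in HET or KO against WT, and their median log2 fold changes were 0.02 and 0.06. In KO against HET 1 of them (5.0%, beside 1.31% of all genes) passed, *Fbln5*, an elastic fibre protein, with a log2 fold change of -0.51 (unadjusted p = 0.0488, adjusted p = 1.0, limma) and overlapping genotypes. *Hspg2*, which encodes perlecan, was at 717, 615 and 574 in WT, 446, 482 and 1140 in HET and 378, 618 and 792 in KO, highest in HET3 and next in KO3.

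Of 17 receptors for collagens and laminins, 1 (5.88%, beside 1.11% of all genes) passed an unadjusted p of 0.05 in HET against WT, 0 in KO against WT and 1 (5.88%, beside 1.31%) in KO against HET, the same gene. *Adgrg6*, an adhesion receptor that binds collagen IV and laminin, was at 166, 149 and 181 in WT, 138, 111 and 81.4 in HET and 141, 240.3 and 179.7 in KO. All HET mice lay below WT, with a log2 fold change of -0.61 (unadjusted p = 0.0276, adjusted p = 0.999, limma), while the KO value was 0.14. All KO mice lay above the HET mice, with a log2 fold change of 0.76 (unadjusted p = 0.00978, adjusted p = 1.0, limma). By overlap alone, 3 of the 17 receptors (17.6%, 1 higher and 2 lower) had HET mice apart from WT, beside 4.45% of all genes. In KO against WT it was 1 (5.88%, beside 4.54%), and in KO against HET 2 (11.8%, both higher, beside 4.45%). These shares were not tested. Of 14 matrix proteases and their inhibitors 0 passed in any of the 3 comparisons, beside 1.11%, 0.822% and 1.31% of all genes. By overlap, 0 had HET mice apart from WT, 1 (7.14%, beside 4.54%) KO mice apart from WT and 1 (7.14%, beside 4.45%) KO mice apart from HET. The median log2 fold changes of the 14 genes were 0.02 in both genotypes against WT. The largest change among them was that of *Mmp9* in KO, 0.82 (unadjusted p = 0.0582).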

How the data were processed

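RNA-seq was done by the authors on the striatum of 3 WT, 3 HET and 3 KO mice, with stranded mRNA libraries, 1 mouse each. Per the study's methods and the labels, the authors quantified transcripts with Salmon 0.9.1 on GRCm38 with GC bias correction, imported gene-level values with tximport and scaled them by size factors in DESeq2 1.19.11 (R 3.6.0). The deposited signal is therefore a normalized count for each gene, not a raw count. Low values are not multiples of 1 step, so whole reads were not recovered, read depth is unknown and no counting interval is given. The annotation release is not given in the sources used here, and 0 columns were left unused. Of the genes, 15457 had a symbol and 7 did not.

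Samples were grouped by their labels. Genes that reached a normalized count of 10 in 3 or more libraries, 14239 in number, entered 1 limma fit (version 3.58.1, R 4.3.3) to log2(normalized count + 1), in which the prior variance followed the mean level and all 9 libraries shared it without covariates. The 3 pairwise genotype contrasts were adjusted by Benjamini-Hochberg over all genes tested, with a threshold of 0.05, and the fit was tested on simulated data. Pairs of chains were tested with two-sided exact permutation over the 9 libraries, without regard to replicate numbers. Levels per kb used merged exon lengths from a GENCODE annotation of GRCm38, and promoter windows came from RefSeq (GRCm38.p6). Figures were drawn with matplotlib 3.10.9.

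The members, the classes, and the lists of processing enzymes, matrix partners, receptors, remodelling genes and cell type markers were chosen with earlier results of these data known. A core of 16 chains is given in full. A further member would be so given if its unadjusted p was under 0.05 and its mice did not overlap WT, which 0 met. Other chains are named as part of their class, and genes of other lists if they met that rule, as extremes or as markers, while *Hspg2* and *Fbln5* were chosen after their values were seen. Col6a4 and Col21a1 were not analysed here. Single values of 1 member that entered the counts are not reported here, and 53 members are drawn.

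Deviations from the genotype mean correlated between HET and KO libraries of the same number at 0.515, 0.281 and 0.506 over all genes tested. The replicate number was therefore used as a block in an alternative fit. The deviations of a genotype sum to 0, and HET3 and KO3 both stood apart from the other libraries. These correlations are thus not independent and do not by themselves show that the numbers pair the libraries. Between WT and HET the same correlations were 0.319, -0.014 and 0.005, and between WT and KO 0.243, -0.221 and 0.024. WT thus went with the mutants at number 1 only, and was near or below 0 at numbers 2 and 3. The labels do not say what a number marks.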

Additional observations from a re-analysis of the deposited data

How the results depend on the processing

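With each of 20 alternatives (pseudocounts of 0.5 and 8, no filter or a stricter one, 2 other scalings, other variance priors, the replicate block, 2 genotypes at a time, and libraries left out), limma called 0 genes at an adjusted p of 0.05 in all 3 comparisons, with 116 to 393 genes at an unadjusted p under 0.05 in HET against WT, 70 to 310 in KO against WT and 141 to 318 in KO against HET. Members at an unadjusted p under 0.05 in HET against WT numbered 1, and 3 with the replicate block, beside 2.56% of all genes (*Col17a1*, *Col15a1* and *Col25a1*). In KO against WT they numbered 0, and 1 with quantile normalization, 1 without the trend and 2 with the block, beside 2.18% of all genes (*Lamb3* among the 2). In KO against HET they numbered 0, and 1 with quantile normalization, 1 without the trend, 3 with the block, 2 with the compared genotypes alone and 2 without HET3 and KO3. The block gave the WT libraries the same replicate effects as HET and KO, although WT deviated with them at number 1 only. Its calls against WT therefore rest on a pairing that the data did not show for all 3 numbers. Leaving out 1 library at a time gave 0 (without WT3) to 3 (without WT2), 0 to 2 (without WT3) and 0 to 4 (without HET1) such members in these comparisons, and the block changed no other call. For alternatives other than the block, the share of all genes in the same setting is not given, so these counts are not read as a result about the members.

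With 1 library left out at a time, the fibrillar median ranged from -0.27 to 0.0418 in HET and from -0.0987 to -0.025 in KO. The basement membrane median ranged from -0.0338 to 0.08 in HET and from 0.0516 to 0.15 in KO. The members' median ranged from -0.08 to 0.04 in HET and from -0.02 to 0.06 in KO. Of 40 log2 fold changes of single chains followed, 20 changed sign in some alternative. In HET against WT the range with 1 library left out was -0.48 to 0.60 for *Col1a1*, -0.54 to 0.37 for *Col1a2*, -0.59 to 0.39 for *Col3a1*, -0.0569 to 0.0728 for *Col4a1*, -0.058 to 0.12 for *Col4a2*, -0.0242 to 0.19 for *Lama2*, -0.27 to 0.0488 for *Lamb1*, -0.0085 to 0.36 for *Lamb2*, -0.30 to 0.0911 for *Col6a1*, -0.50 to 0.17 for *Lamb3* and -0.0946 to 0.0579 for *Col5a2*. In KO against WT it was -0.42 to 0.52 for *Col1a1*, -0.35 to 0.32 for *Col1a2*, -0.60 to 0.23 for *Col3a1*, -0.0354 to 0.11 for *Col4a2*, -0.14 to 0.15 for *Lama4*, -0.0327 to 0.47 for *Lama5*, -0.11 to 0.26 for *Lamc1*, -0.0867 to 0.0016 for *Col25a1* and -0.11 to 0.23 for *Col18a1*. Without HET3 and KO3 together, the HET value was -0.0021 for *Col4a2*, -0.0085 for *Lamb2* and 0.0418 for *Col5a2*, and the KO value -0.0327 for *Lama5*, -0.11 for *Lamc1*, 0.0016 for *Col25a1* and -0.0312 for *Col18a1*. The correlation of *Col4a5* with *Col4a6* was -0.086 without the 2 libraries farthest from the median, and that of *Lamb1* with *Lamc1* 0.108 and, without HET3 and KO3, 0.174. The cause of these changes was not tested. Read depth is unknown, and 3 mice a genotype limit what could be detected.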
